A study of Mus musculus with 15 samples.

Results

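The comparison set cells of the embryonic mouse ventral midbrain that carried green fluorescent protein (GFP) against cells that did not, after fluorescence-activated cell sorting at embryonic day 14 (E14). It used 6 of the 15 samples of the series, 3 GFP+ libraries and 3 GFP− libraries. Genes were kept where the mean over these 6 libraries was at least 5 normalized reads, which left 18260 of the 21566 genes in the sorted table, and 3306 were not tested. Gm14270, at a mean of 4.999, fell just outside this limit and Gm45425, at 5.002, just inside it. The GFP+ fraction and the GFP− fraction both came from Pitx3-GFP embryos at E14 without a drug or other experimental agent, so every library shares the reporter genotype and no library of embryos without the reporter entered. No source used here says how the reporter was built or how the sort was gated. The submitters state 3 litters but do not tie a library to a litter, so p-values here reflect only how far these libraries differ, which may be technical. The labels call both fractions dopamine neurons.

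Dopamine neurons of the midbrain arise from floor plate progenitors that use Lmx1a, Foxa2 and hedgehog signals, leave the cell cycle, and then switch on Nr4a2, Pitx3 and the enzymes and transporters of dopamine. Pitx3 encodes a homeobox factor that in the brain is largely restricted to these neurons, which is why a Pitx3 reporter can mark them. Their neighbours in the ventral midbrain are radial glia, which both divide and guide migrating cells, GABAergic and glutamatergic neurons, glial precursors, and the cells of vessels, blood and meninges. In sorted bulk RNA, fewer cells of a type and less RNA per cell cannot be told apart.

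The libraries held 17369191 to 22374153 reads, recovered from the deposited values, and between 371 and 713 of the table's genes were at 0 in a library. On log2 values, the leading principal component took 75.2% of the variance and separated the fractions. The next one took 10.7% and set both columns numbered 1, at 38.8 in GFP+ and 33.9 in GFP− cells, apart from the other 4 libraries, which were all negative. These 2 columns also received the lowest array weights of limma, 0.438 in GFP+ and 0.495 in GFP−, against 1.12 to 1.68 elsewhere. Without these 2 columns 6625 genes were called, 2989 higher and 3636 lower, against 5599 with all libraries.

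The 5 genes named for checking the sort separated the fractions in every library. Th, which encodes tyrosine hydroxylase, the limiting step towards dopamine, had 7649, 8695 and 9333 normalized reads in the GFP+ libraries, against 77.5, 110 and 82.2 in the GFP− libraries. The dopamine transporter gene Slc6a3 had 4749, 6920 and 6353 in GFP+ cells and 25.8, 36.8 and 15.7 in GFP− cells. Fabp7, a lipid carrier typical of radial glia, had 2135, 1692 and 1458 in GFP+ cells and 52525, 42823 and 48180 in GFP− cells. No library of either fraction came near the other fraction for these genes. Tnc, a matrix glycoprotein made by radial glia, had 126, 138 and 106 in GFP+ cells, against 6626, 6786 and 6292 in GFP− cells. Pitx3 itself had 884, 1119 and 1315 in GFP+ cells and 6.46, 7 and 8.74 in GFP− cells, but its reporter was the basis of the sort and it is no independent check. The label of dopamine neurons therefore describes the GFP+ libraries and goes against the GFP− libraries, in which Th stood at 1.05% and Slc6a3 at 0.435% of the GFP+ mean.

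What remained of each fraction's genes in the other fraction differed between genes. Ddc, the decarboxylase shared by dopamine and serotonin cells, stood in GFP− cells at 3.86% of its GFP+ mean, and Slc18a2, which loads monoamines into vesicles, at 4.73%. Chrna6, a nicotinic receptor subunit, and Aldh1a1, an aldehyde dehydrogenase, stood there at 0.4% and 0.43%. In the other direction, GFP+ cells held 1.88% of the GFP− mean of Tnc, 3.68% of Fabp7, 6.67% of the stem cell factor Sox2, 5.74% of the topoisomerase Top2a and 2.18% of the haemoglobin gene Hbb-bs. Of 19 tested genes of dopamine synthesis, storage, uptake and breakdown, 12 were higher in GFP+ cells (63.2%, against 12.7% of all tested genes). Another 4 were not called, among them Pts and Qdpr. The 3 lower ones were Aldh2 (log2 fold change -1.48), Spr (-1.05) and Maoa (-0.72).

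The promoter of Th is shown because it belongs to the gene with the best known role in the sorted cells and holds an exact cAMP response element, the palindrome TGACGTCA, which begins 45 bases before the start and stands in capitals. The window runs from 250 bases before to 20 after the RefSeq start (GRCm38.p6, chr7:142899976-142900245, minus strand) and reads 5′ to 3′ along the gene:
Th: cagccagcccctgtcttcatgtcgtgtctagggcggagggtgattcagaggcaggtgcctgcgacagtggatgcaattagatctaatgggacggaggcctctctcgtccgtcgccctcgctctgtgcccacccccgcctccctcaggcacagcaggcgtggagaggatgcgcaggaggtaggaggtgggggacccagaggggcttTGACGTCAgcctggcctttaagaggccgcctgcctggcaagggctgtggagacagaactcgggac
The same 8 letters occurred in 290 of 8734 promoter windows of tested protein-coding genes (3.32%; 300-base windows, both strands), and in 2 of 11 windows of genes of dopamine synthesis, storage, uptake and breakdown. A match of letters is a description and not evidence of binding.

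Between the fractions, 5599 genes were called at a limma adjusted p of 0.05 (30.7% of the 18260 tested). Of these, 2313 were higher in GFP+ cells (12.7% of tested) and 3286 were lower (18%). These 2 shares are the background for the counts by list and family below. With the column number as a replicate block they were 22.7% and 23.6%. With quantile normalization the split turned round, to 3244 higher and 2992 lower, so that 52% of the calls were higher instead of 41.3%. The authors' deposited table called 5369 of the tested genes, of which 5227 were called here in the same direction and 0 in the opposite one. The 2 directions had different shapes. Among the higher genes, 376 changed by less than 1.25-fold and another 750 by 1.25- to 1.5-fold, and 28 by 16-fold or more. Among the lower genes, 129 changed by less than 1.25-fold and 156 by 16-fold or more. At 2-fold or more there were 775 higher genes (4.24% of tested) and 2042 lower genes (11.2%). The plot of change against level shows the narrow band of small increases among well expressed genes and the wide spread of decreases among weaker ones.

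**Figure D1:**
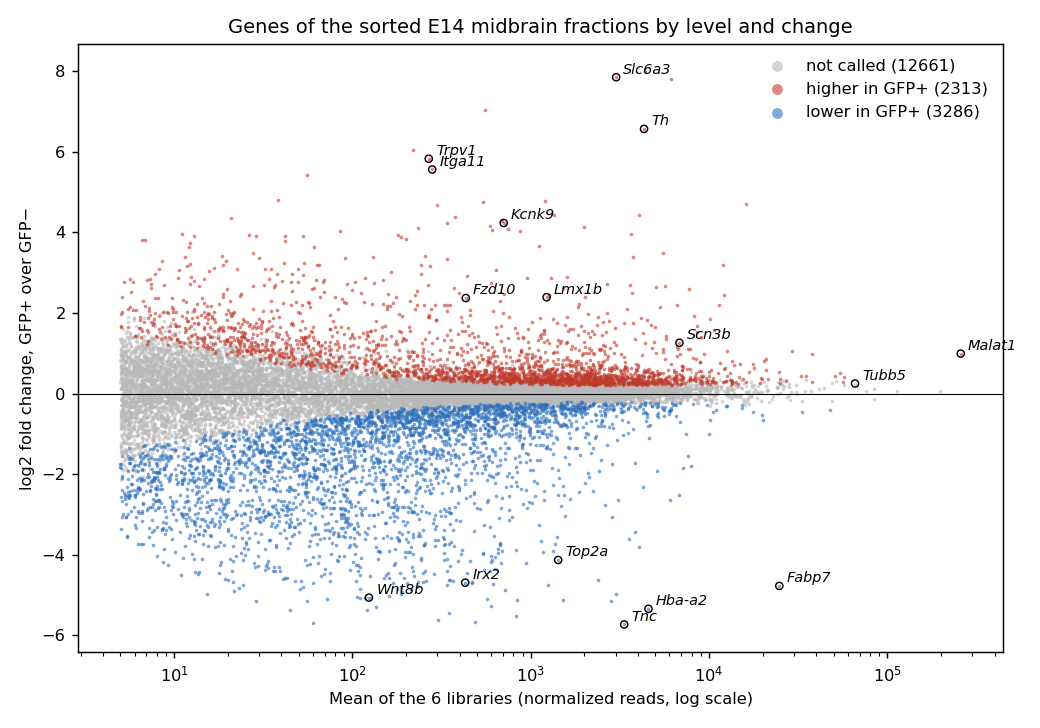
Each point is 1 of the 18260 tested genes, with the mean of the 6 libraries in normalized reads on a log axis and the log2 fold change of GFP+ over GFP− cells on the other, coloured by the call at an adjusted p of 0.05. The 2313 higher genes crowd just above 0 at high level, while the 3286 lower genes reach down to Tnc at -5.73.

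As a share of all reads, the called genes weighed differently from their number. Genes called higher held 28.1%, 26.4% and 27% of reads in the GFP+ libraries and 19.5%, 19.3% and 18.7% in the GFP− libraries. Genes called lower, though more numerous, held 5.91%, 6.17% and 6.03% in GFP+ cells and 11.9%, 11.8% and 11.8% in GFP− cells. The genes lower by 2-fold or more took up 0.934 ± 0.023% of GFP+ reads and 4.24 ± 0.11% of GFP− reads (mean ± SD, n = 3 each). These shares describe the calls and were not tested, because the calls chose the genes.

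Several membrane proteins were among the largest increases. Trpv1, a heat- and capsaicin-gated cation channel, had 573, 514 and 496 normalized reads in GFP+ cells, against 7.54, 14 and 5.25 in GFP− cells (log2 fold change 5.83, SE 0.29, adjusted p = 4.46e-08). Itga11, a collagen-binding integrin subunit, had 451, 562 and 628 in GFP+ cells and 3.23, 13.1 and 24.5 in GFP− cells. Adrb3, a beta-adrenergic receptor best known from fat, had 80.2, 124 and 124 in GFP+ cells and 0, 3.5 and 2.62 in GFP− cells. For these 3 genes every GFP+ library lay far above every GFP− library. The log2 fold change of Slc35d3, an orphan member of the nucleotide sugar transporters, was 4.75 (SE 0.13), and that of Chrnb3, a nicotinic receptor subunit, 6.04 (SE 0.23).

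The largest decreases included the following genes. Pdlim3, a PDZ and LIM domain protein of muscle, had 25.1, 12.9 and 17 normalized reads in GFP+ cells, against 975, 850 and 1029 in GFP− cells (log2 fold change -5.66, SE 0.22). Ednrb, the endothelin receptor B of radial glia and neural crest, had 170, 172 and 121 in GFP+ cells and 6109, 5270 and 4995 in GFP− cells. Has2, which makes hyaluronan, had 29.9, 24.1 and 33 in GFP+ cells and 1322, 1015 and 1153 in GFP− cells. Log2 fold changes were -5.62 for the pentraxin Ptx3, -5.29 for the homeodomain-only protein gene Hopx and -5.38 for the calcitonin receptor gene Calcr. All 6 genes were chosen in the same way, so the lack of overlap is no separate result.

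A few genes had no read at all in 1 fraction. There were 13 tested genes with 0 reads in all 3 GFP+ libraries, all called lower, and 2 with 0 reads in all 3 GFP− libraries, both called higher. Fezf2, a forebrain zinc finger factor, had 0 reads in each GFP+ library, against 94.7, 27.1 and 8.74 normalized reads in the GFP− libraries. Set against a floor of 3 reads over the GFP+ group, it was at least 41-fold lower in GFP+ cells, but its GFP− libraries spread widely. On the same floor Irx4, an Iroquois homeobox factor, was at least 20.6-fold lower, Slco1a5, an organic anion transporter, at least 28.7-fold lower and Tyrobp, a signalling adaptor of microglia, at least 16.4-fold lower. Irak3, an inhibitor of Toll-like receptor signalling, had 20.3, 8.33 and 12.8 in GFP+ cells and was at least 14.7-fold higher there than in GFP− cells.

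Among families of factors that pattern the neural tube, the Irx, Pax and Nkx genes called were all lower in GFP+ cells. All 6 tested Irx factors were lower (median log2 fold change -4.31), as were all 5 Pax factors (median -3.22) and 6 of 8 Nkx factors (median -3.18), with 0 higher in these 3 families. The median over all 18260 genes was 0.02, with 12.7% higher and 18% lower. Other families were mixed: 8 of 23 forkhead factors were lower and 4 higher, 5 of 11 POU factors were lower and 2 higher, and none of 3 tested Hox genes was called. En1 and En2, homeobox factors of the midbrain and of dopamine neurons, were higher by 3.95 and 3.49. Irx2 had 28.7, 38.9 and 26.6 normalized reads in GFP+ cells, against 781, 901 and 800 in GFP− cells. Pax6, which specifies neural progenitors and neurons of several regions, had 69.4, 82.3 and 82.9 in GFP+ cells, against 1143, 1233 and 1337 in GFP− cells. Nkx2-4, a ventral forebrain factor, had 12, 3.7 and 2.13 in GFP+ cells and 404, 187 and 96.2 in GFP− cells. The fractions did not overlap for any of these 3 genes, though the GFP− libraries spread widely for Nkx2-4.

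The LIM homeobox family split cleanly, with 2 of its 9 tested members higher and 7 lower, so that none was without a call. Lmx1b, which is needed to specify dopamine neurons, had 1960, 1985 and 2244 normalized reads in GFP+ cells and 438, 396 and 346 in GFP− cells (log2 fold change 2.39, SE 0.10). Its relative Lmx1a had 8120, 8759 and 8982 in GFP+ cells and 1866, 2014 and 2000 in GFP− cells. Isl1, a factor of motor neurons and other cholinergic cells, had 28.7, 32.4 and 19.1 in GFP+ cells, against 715, 646 and 666 in GFP− cells. Lhx2, a factor of forebrain and eye progenitors, and Lhx5, found in GABAergic midbrain cells, were lower by -4.85 (SE 0.32) and -4.16 (SE 0.16). Among Sox factors 3 of 16 were higher and 9 lower (median -1.78). The neuronal factor Sox6, known from dopamine neurons of the substantia nigra, was higher by 0.52 (SE 0.11), while Sox8 and Sox1 of glia and progenitors were lower by -4.71 and -4.40. When any single library was left out, 1 to 3 Sox genes were higher and 9 lower.

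Notch signals between neighbouring cells keep progenitors from differentiating, and most of the Notch genes called were lower. The Notch list had 16 of 32 members lower and 6 higher (median -0.44). Notch1, a receptor, had 85, 77.7 and 46.8 normalized reads in GFP+ cells, against 1174, 1119 and 1086 in GFP− cells. Hes5, a target of Notch that holds cells in the progenitor state, had 8.38, 7.4 and 21.3 in GFP+ cells and 376, 375 and 349 in GFP− cells. No GFP+ library reached the GFP− range for either. The higher members were led by Dlk1, a non-canonical ligand seen in dopamine neurons (log2 fold change 2.63, SE 0.10), Maml3, a coactivator (0.98), and the ligands Jag2 (0.60) and Dner (0.44). Another ligand, Dll1, was lower by -1.08 (SE 0.09). In the Hes and Hey family, 6 of 7 were lower and 0 higher.

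Of 21 hedgehog genes 11 were lower and 3 higher (median -1.14). The transcription factors Gli1 and Gli3 were lower by -3.08 and -2.97, and Hhip, which binds the ligand, by -3.12. Hhat, the enzyme that attaches palmitate to hedgehog ligands, had 109, 118 and 124 normalized reads in GFP+ cells, against 53.8, 54.2 and 47.2 in GFP− cells. Disp2 and Scube3, a Dispatched protein and a secreted protein that aids ligand release, were higher by 0.70 and 0.67. Shh itself, the ligand, was not called (0.23, adjusted p = 0.0879 by limma, and 0.00888 with the replicate block).

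Among Wnt receptors 7 of 10 frizzled genes were lower and 2 higher (median -1.43). Fzd10 had 724, 673 and 764 normalized reads in GFP+ cells, against 184, 164 and 87.5 in GFP− cells (log2 fold change 2.37, SE 0.23), and Fzd8 was higher by 2.19 (SE 0.11). Fzd1 had 291, 264 and 291 in GFP+ cells and 1288, 1412 and 1467 in GFP− cells, and Fzd9 was lower by -4.03. Fzd3, known for its part in axon growth, was not called (0.17, adjusted p = 0.298 by limma, and 0.0105 with the replicate block). The 2 higher receptors thus stood against 7 lower ones in the same libraries. Of 11 tested Wnt ligands 3 were higher and 3 lower. Wnt10b had 51.5, 64.8 and 50 in GFP+ cells, against 3.23, 5.25 and 5.25 in GFP− cells, while Wnt8b, a forebrain and hem ligand, had 13.2, 4.63 and 3.19 in GFP+ cells, against 337, 211 and 174 in GFP− cells.

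BMP and TGF-beta genes were called in both directions, with 10 of 40 higher and 13 lower. The antagonist Grem1 had 562, 691 and 667 normalized reads in GFP+ cells, against 96.9, 110 and 104 in GFP− cells. The ligands Bmp7 and Bmp3 were higher by 2.10 and 2.29, and the co-receptor Tgfbr3 by 2.83. The targets Id1, Id3 and Id4, which block neuronal differentiation factors, were lower by -3.21, -2.97 and -3.06. The antagonist Fst (follistatin) was lower as well, by -3.16 (SE 0.24), unlike Grem1. Among FGF ligands 4 of 12 were higher and 5 lower. Fgf20, a factor known for dopamine neuron survival, had 82.6, 130 and 124 in GFP+ cells, against 6.46, 4.38 and 16.6 in GFP− cells, and Fgf15, of neural progenitors, was lower by -3.19 (SE 0.72).

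**Figure D2:**
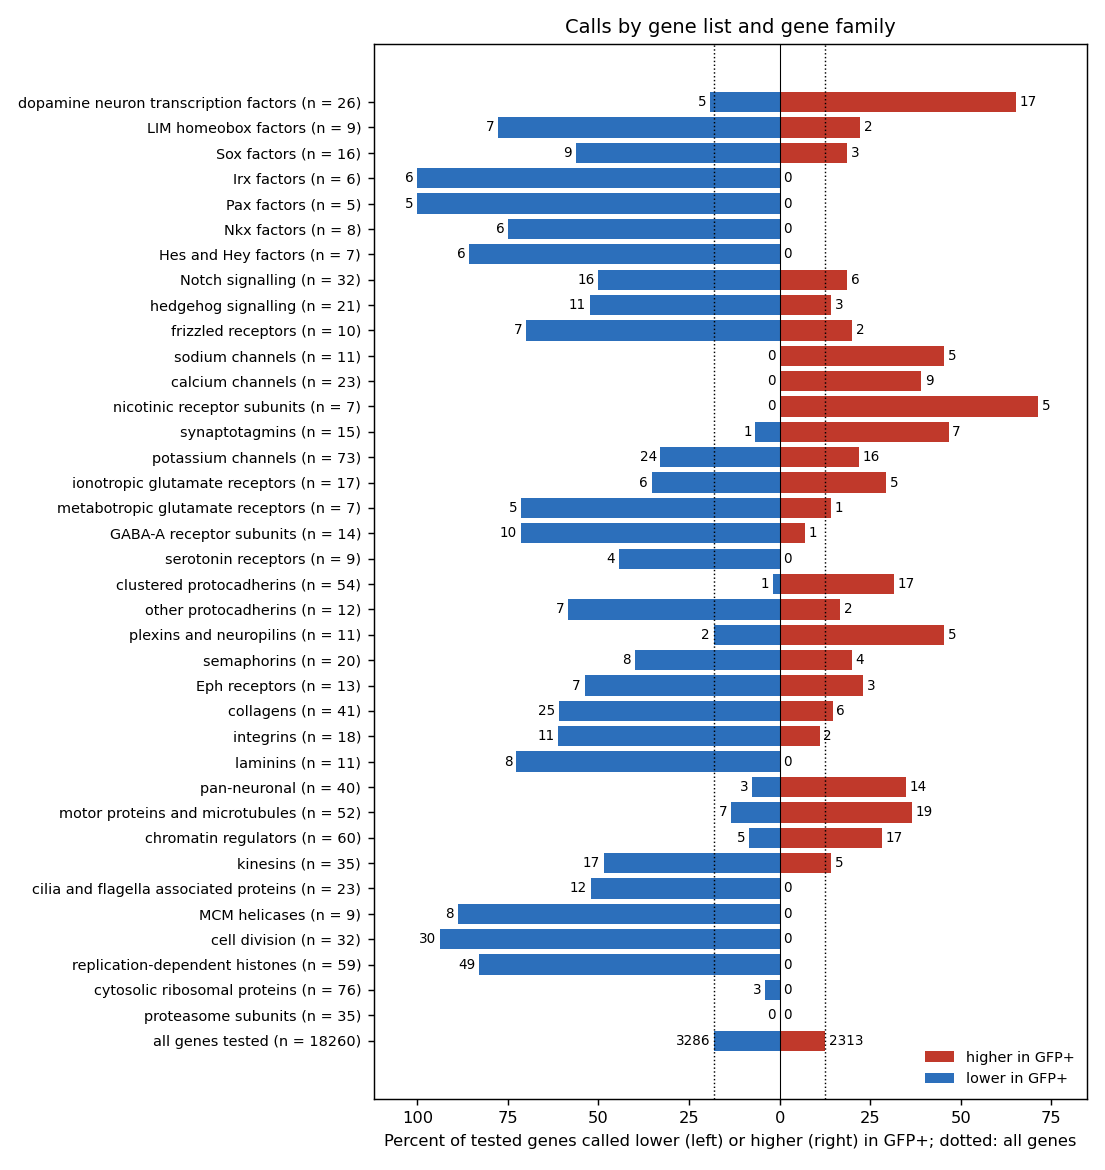
Bars give, for each gene list or family, the percent of tested members called higher (right) and lower (left) in GFP+ cells, with counts at the bar ends and dotted lines at 12.7% and 18% for all 18260 genes. Patterning factors, matrix, division and histone families extend to the left, and sodium, calcium and nicotinic channels to the right, with 0 lower.

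Ion channels were counted by class. Of 11 tested sodium channel genes 5 were higher and 0 lower (median 0.32), and of 23 calcium channel genes 9 were higher and 0 lower (median 0.27). Scn3b, an accessory subunit, had 8508, 9901 and 10481 normalized reads in GFP+ cells, against 3441, 4338 and 4305 in GFP− cells (log2 fold change 1.26, SE 0.11). The pore subunit Scn9a had 2246, 1440 and 1649 in GFP+ cells and 751, 542 and 485 in GFP− cells. Not every pore subunit moved, and Scn2a, common in central neurons, had 3811, 3710 and 3551 in GFP+ cells and 3759, 3956 and 3799 in GFP− cells, with no call (-0.06). Cacna2d3, an auxiliary calcium channel subunit, had 6092, 6367 and 6420 in GFP+ cells, against 1019, 1063 and 1269 in GFP− cells (2.50, SE 0.09). Cacna1e, the R-type pore subunit, was higher by 0.61 (SE 0.11).

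Potassium channels were the largest channel family and were called in both directions, with 16 of 73 higher and 24 lower (median -0.19). Kcnk9, a leak channel also called TASK-3, had 1345, 1210 and 1467 normalized reads in GFP+ cells, against 58.1, 75.2 and 78.7 in GFP− cells (log2 fold change 4.23, SE 0.14). Kcnip4, a cytoplasmic partner of A-type channels, was higher by 2.46 and Kcng3, a modifying subunit, by 2.24. Kcnj10, the inward rectifier of glia, had 32.3, 35.2 and 15.9 in GFP+ cells, against 192, 240 and 228 in GFP− cells. Kcnk5, a leak channel also found in epithelia, was lower by -3.13. For each of these 5 genes the fractions did not overlap.

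Receptors for transmitters were counted by family. Nicotinic receptor subunits had 5 of 7 tested genes higher and 0 lower (median 0.79). Chrna4, the main partner of beta2 in the brain, had 1389, 1834 and 2110 normalized reads in GFP+ cells, against 573, 757 and 765 in GFP− cells, and Chrna5, an accessory subunit, was higher by 0.79 (SE 0.22). GABA-A receptor subunits had 10 of 14 lower and 1 higher (median -0.97). Gabrg1 had 302, 348 and 260 in GFP+ cells and 1082, 1056 and 965 in GFP− cells, and Gabra5 and Gabra2 were lower by -1.81 and -1.49. The 1 higher subunit was Gabrq, the theta subunit, with 415, 402 and 437 in GFP+ cells, against 213, 205 and 178 in GFP− cells. The direction of every named subunit was the same in all 3 libraries of each fraction.

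Glutamate receptors were called in both directions. Among ionotropic subunits 5 of 17 were higher and 6 lower, with the lower count ranging from 3 to 6 when a library was left out. Gria3, an AMPA receptor subunit, had 3555, 2751 and 2880 normalized reads in GFP+ cells, against 660, 633 and 658 in GFP− cells. The kainate subunit Grik3 was higher by 1.55 (SE 0.10) and its relative Grik1 lower by -1.34 (SE 0.12). Among 7 metabotropic receptors 5 were lower and 1 higher (median -1.43). The higher one, Grm2, a presynaptic autoreceptor, had 249, 278 and 354 in GFP+ cells and 66.7, 80.5 and 73.5 in GFP− cells. Its closest relative Grm3 had 157, 135 and 155 in GFP+ cells and 727, 731 and 674 in GFP− cells, so the pair of group II receptors ran in opposite directions. Of 9 tested serotonin receptors 4 were lower and 0 higher, led by Htr3a (-3.09, SE 0.64).

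**Figure D3:**
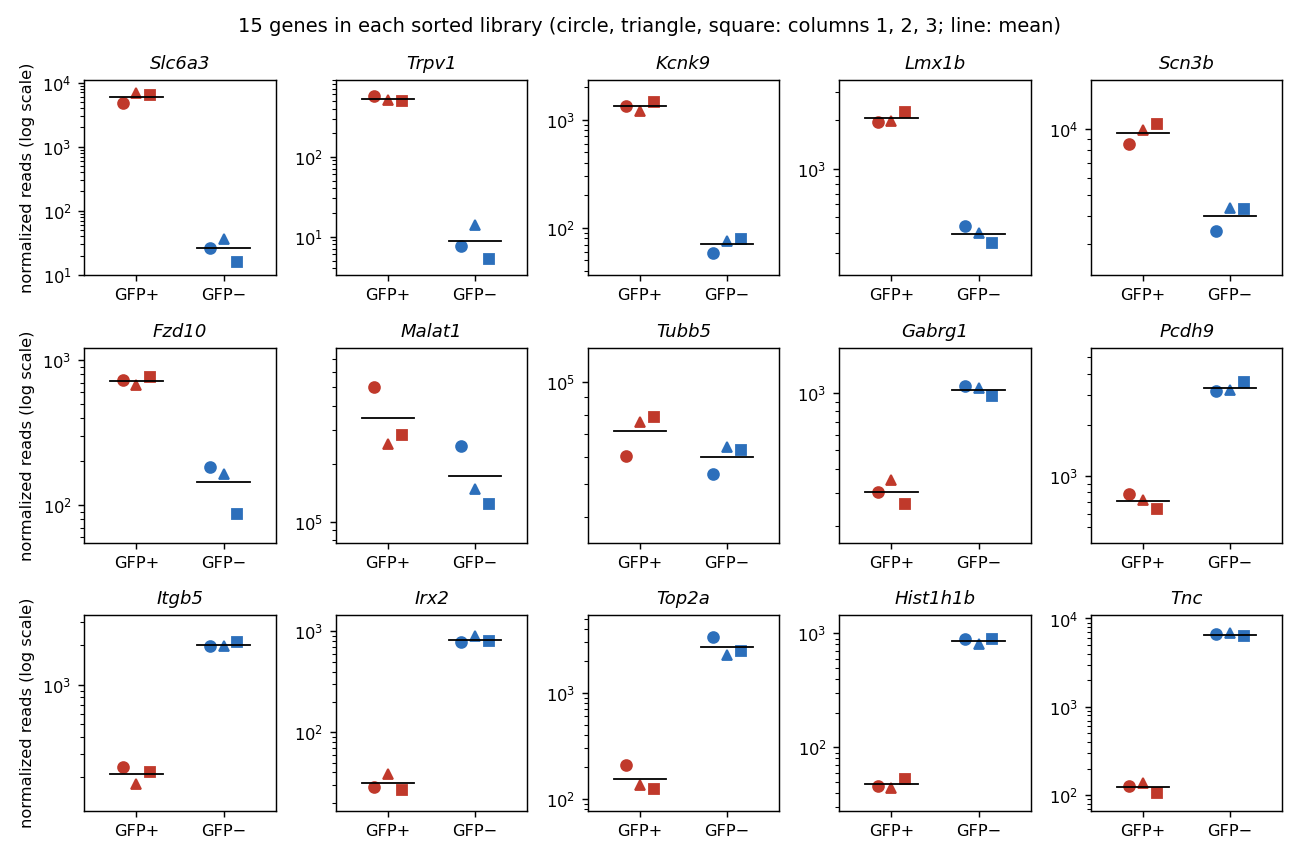
Normalized reads on a log axis for 15 genes in the 3 GFP+ libraries (left in each panel) and the 3 GFP− libraries (right), with circle, triangle and square for columns 1, 2 and 3 and a line at the mean. For Slc6a3 through Fzd10 all GFP+ points lie above all GFP− points, for Gabrg1 through Tnc all lie below, and for Tubb5 the 2 fractions overlap, with both columns numbered 1 lowest in their fraction.

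The release machinery gave 16 of 46 members higher and 5 lower (median 0.09). The calcium sensors of the synaptotagmin family had 7 of 15 higher and 1 lower. Syt17, an atypical member, had 887, 1145 and 1072 normalized reads in GFP+ cells, against 113, 184 and 171 in GFP− cells (log2 fold change 2.74, SE 0.17). Syt4, found on dense core vesicles, had 17089, 16774 and 17105 in GFP+ cells and 8335, 7641 and 8468 in GFP− cells. Cadps2, which primes dense core vesicles, was higher by 1.99 (SE 0.10), and the active zone protein gene Erc2 by 1.16 (SE 0.08). The synapsin Syn2 was lower by -0.84 (SE 0.18). Among neuropeptides and granins 8 of 29 were higher and 12 lower. Scg2, a granin of the same vesicles, had 17613, 20774 and 17597 in GFP+ cells, against 3485, 4531 and 4329 in GFP− cells, and the peptide gene Cck was higher by 4.05 (SE 0.15). The peptide genes Cartpt, Nts, Pmch and Npy were lower by -4.83, -4.71, -4.69 and -4.16.

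A pair of GABAergic genes went against their list. Of 24 tested GABAergic genes 22 were lower (median -3.56), among them Gad1, a GABA-synthesizing enzyme, with 80.2, 151 and 65.9 normalized reads in GFP+ cells, against 1037, 1407 and 1309 in GFP− cells. Slc32a1, the vesicular GABA transporter, had 419, 533 and 506 in GFP+ cells and 174, 238 and 240 in GFP− cells (log2 fold change 1.17, SE 0.15). Gad2, the other GABA-synthesizing enzyme, had 2028, 2053 and 2025 in GFP+ cells and 1740, 1712 and 1764 in GFP− cells (0.23, SE 0.07, adjusted p = 0.0299, and 0.051 with edgeR on recovered reads). The 2 enzymes of GABA synthesis therefore lay on opposite sides, and Gad2 lost its call with edgeR.

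Cell surface families for adhesion also divided. The clustered protocadherins, a large set of homophilic adhesion genes, had 17 of 54 tested genes higher and 1 lower (median 0.36). This count ranged from 8 to 14 when any single library was left out, and was 40 under quantile normalization. Where members share constant exons, as in the alpha and gamma clusters, the split of reads between them is uncertain. Pcdha2 had 133, 125 and 126 normalized reads in GFP+ cells, against 68.9, 65.6 and 69.1 in GFP− cells (log2 fold change 0.90, SE 0.16). Pcdhgc3, the 1 lower gene, had 522, 620 and 666 in GFP+ cells and 1127, 1140 and 1164 in GFP− cells. Of the 12 other protocadherins 7 were lower and 2 higher. Pcdh9 had 787, 718 and 642 in GFP+ cells and 3169, 3224 and 3577 in GFP− cells, while Pcdh10, known for axon growth, had 10048, 10508 and 10646 in GFP+ cells and 4892, 5043 and 4555 in GFP− cells.

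Guidance receptors of growing axons were called on both sides. Of 11 plexins and neuropilins 5 were higher and 2 lower. The semaphorin co-receptor Nrp2 had 9367, 8738 and 9379 normalized reads in GFP+ cells, against 4544, 4174 and 4135 in GFP− cells, and Plxna4, a semaphorin receptor, was higher by 1.20 (SE 0.08). Nrp1, the paralog of Nrp2, had 1310, 1064 and 1120 in GFP+ cells and 2178, 1943 and 1825 in GFP− cells, so the 2 neuropilins ran in opposite directions. Of 13 Eph receptors 3 were higher and 7 lower (median -0.66). Epha10, which lacks kinase activity, was higher by 2.08 (SE 0.11), and Ephb4, of vessels, lower by -3.53. Among 20 semaphorins 4 were higher and 8 lower.

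Matrix genes and their receptors were mostly lower. Of 41 tested collagens 25 were lower and 6 higher (median -1.15), of 11 laminins 8 were lower and 0 higher (median -1.39), and of 18 integrins 11 were lower and 2 higher (median -1.47). Col22a1, of tissue junctions, had 80.2, 58.3 and 48.9 normalized reads in GFP+ cells, against 1029, 1148 and 1217 in GFP− cells. Lamb2, a basement membrane laminin, had 63.4, 48.1 and 39.3 in GFP+ cells and 704, 654 and 717 in GFP− cells. Itgb5, an integrin beta subunit, had 238, 176 and 217 in GFP+ cells and 1961, 1985 and 2104 in GFP− cells, and Itgav, the alpha subunit it pairs with, was lower by -3.72 (SE 0.13). The exceptions were specific: Col25a1, a transmembrane collagen of neurons, had 1593, 1900 and 1851 in GFP+ cells and 875, 993 and 804 in GFP− cells, while Col6a6 was higher by 2.82 (SE 0.22), and the integrins Itga11 and Itga3 by 5.56 and 0.97.

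Genes of division fell together. In the cell division list 30 of 32 genes were lower, with 0 higher (median -2.59), and of 9 MCM genes, which encode the replicative helicase and its partners, 8 were lower and 0 higher. Cdk1, the kinase that drives mitosis, had 14.4, 17.6 and 18.1 normalized reads in GFP+ cells, against 259, 239 and 299 in GFP− cells. Ccnb2, a cyclin that activates it, had 23.9, 21.3 and 23.4 in GFP+ cells and 139, 104 and 127 in GFP− cells. Ube2c, which helps destroy mitotic cyclins, had 4.79, 3.7 and 9.57 in GFP+ cells and 159, 127 and 143 in GFP− cells. Every GFP+ library was well below every GFP− library for these 3. The 2 division genes without a call were Kif23, a motor of cytokinesis (-0.23), and E2f1, a factor of S phase entry (-0.53).

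The promoters of these 3 genes are printed because division genes that moved together are known for a pair of short elements: the CCAAT box bound by NF-Y and the cell cycle homology region (CHR), read here as TTTGAA. Capitals mark both on either strand. Each window runs from 250 bases before to 20 after the RefSeq start (GRCm38.p6; Cdk1 chr10:69352893-69353162, minus strand; Ccnb2 chr9:70421535-70421804, minus strand; Ube2c chr2:164769679-164769948, plus strand):
Cdk1: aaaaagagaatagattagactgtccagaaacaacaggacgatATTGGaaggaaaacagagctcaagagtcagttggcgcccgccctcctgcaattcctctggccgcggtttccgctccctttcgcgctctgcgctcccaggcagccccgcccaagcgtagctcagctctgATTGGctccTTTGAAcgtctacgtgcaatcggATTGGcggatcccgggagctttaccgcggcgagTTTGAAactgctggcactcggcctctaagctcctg
Ccnb2: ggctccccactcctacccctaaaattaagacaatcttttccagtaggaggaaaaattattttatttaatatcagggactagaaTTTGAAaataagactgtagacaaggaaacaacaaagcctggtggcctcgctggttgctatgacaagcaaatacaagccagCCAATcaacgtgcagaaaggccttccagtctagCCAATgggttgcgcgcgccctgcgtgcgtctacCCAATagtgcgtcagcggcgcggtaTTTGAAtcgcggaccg
Ube2c: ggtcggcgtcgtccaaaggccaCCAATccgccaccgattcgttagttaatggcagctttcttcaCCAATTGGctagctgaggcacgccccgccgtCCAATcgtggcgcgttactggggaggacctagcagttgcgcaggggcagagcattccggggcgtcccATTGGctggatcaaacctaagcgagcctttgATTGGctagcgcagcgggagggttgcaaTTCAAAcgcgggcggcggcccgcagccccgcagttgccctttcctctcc
The letters TTTGAA or TTCAAA stood in the windows of 13 of 27 cell division genes (48.1%), against 1016 of all 8734 windows (11.6%), where a window spans 300 bases. The letters CCAAT or ATTGG stood in 21 of the 27 (77.8%), against 3431 of all (39.3%), and both elements together in 13 of the 27, against 437 of all (5%). In Ube2c a CCAAT and an ATTGG overlap. Kif23 also holds both elements and was not called. These shares are descriptions and were not tested.

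Histone genes whose messages are made in S phase moved with division. Of 59 tested genes of replication-dependent histones 49 were lower and 0 higher (median -1.29). These messages lack a poly(A) tail and ribosomal RNA depletion, unlike poly(A) selection, does not remove them. Many copies are near-identical, so the split between single genes is uncertain. Hist1h1b, a linker histone, had 45.5, 44.4 and 53.2 normalized reads in GFP+ cells, against 900, 801 and 896 in GFP− cells. Summed, these histones took 0.0589%, 0.0662% and 0.0852% of reads in the GFP+ libraries and 0.151%, 0.149% and 0.168% in the GFP− libraries (exact two-sided permutation test, p = 0.1, the smallest that 3 against 3 allows). Hist3h2a and Hist3h2ba were not called, and Hist3h2a had 903, 817 and 855 in GFP+ cells and 916, 812 and 960 in GFP− cells, so the ranges overlapped.

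Ciliary genes were called in part. Of 23 cilia and flagella associated protein genes 12 were lower and 0 higher (median -0.98). With the replicate block 17 were lower, where 23.6% of all genes were. Foxj1, the master factor of motile cilia, had 82.6, 50.9 and 37.2 normalized reads in GFP+ cells, against 536, 549 and 511 in GFP− cells. Cfap100, an axonemal protein, had 59.8, 53.7 and 39.3 in GFP+ cells and 820, 578 and 604 in GFP− cells. For both, no GFP+ library overlapped the GFP− libraries. Of 22 Bardet-Biedl and intraflagellar transport genes, which serve all cilia, 3 were lower and 0 higher (median -0.09), and of 14 axonemal dyneins 4 were lower and 2 higher. The letters GTTGCC or GGCAAC, of the X-box that RFX factors bind, stood in 6 of 15 promoter windows of the Cfap genes (40%), against 1106 of all 8734 (12.7%). Several motifs were searched over several gene lists, and most of those shares are not printed. The printed ones are descriptions and were not tested.

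Many neuronal structure genes were not called. Of 40 pan-neuronal genes 14 were higher, 3 lower and 23 not called (median 0.22). With the replicate block 26 were higher and 5 lower, where 22.7% and 23.6% of all genes were. Stmn2, a tubulin-binding protein of growth cones, had 20742, 23038 and 22482 normalized reads in GFP+ cells, against 12306, 13382 and 14506 in GFP− cells (log2 fold change 0.72, SE 0.09). The splicing factor genes Rbfox1 and Rbfox3 (NeuN) were lower by -1.35 and -0.46. Of 52 motor protein and microtubule genes 19 were higher, 7 lower and 26 not called, and of 35 kinesins 5 were higher and 17 lower (median -0.57). Within the kinesins the transport motors Kif5a and Kif5c were higher by 0.56 and 0.44, and the mitotic motors Kif2c and Kif11 lower by -3.81 and -3.16. Kif5a had 10577, 11036 and 10442 in GFP+ cells and 6571, 7957 and 7323 in GFP− cells.

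The most abundant tubulins depended on how the columns were treated. Tubb5 had 60336, 76079 and 78750 normalized reads in GFP+ cells, against 53538, 64029 and 62860 in GFP− cells, which overlap, and was not called (log2 fold change 0.25, SE 0.13, adjusted p = 0.17, and 0.00457 with the replicate block). Tubb3, the neuronal tubulin, had 34642, 41293 and 40961 in GFP+ cells and 26170, 33616 and 33930 in GFP− cells, again with no call (0.32, adjusted p = 0.0659, and 0.000122 with the replicate block). In both genes the column numbered 1 was the lowest of its fraction. Actb, the cytoplasmic actin, had 38826, 49560 and 49759 in GFP+ cells and 46045, 56133 and 53706 in GFP− cells, and was not called (-0.18), but was called lower with the replicate block (adjusted p = 0.0285). Tuba1b was called (1.25, SE 0.28), and Tubb4a likewise (0.63, SE 0.09). The median of the tubulin family was 0.21, and -0.03 under quantile normalization, so no direction is given for it.

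Of 60 chromatin regulators 17 were higher, 5 lower and 38 not called (median 0.13). Dpf3, a subunit of neuronal BAF remodelling complexes, had 2795, 2464 and 2581 normalized reads in GFP+ cells, against 827, 913 and 852 in GFP− cells (log2 fold change 1.59, SE 0.08). The H3K4 methyltransferase gene Kmt2a and the Polycomb gene Cbx2 were higher by 0.48 (SE 0.10) and 0.55 (SE 0.10). Uhrf1, which copies DNA methylation after replication, had 56.2, 68.5 and 54.2 in GFP+ cells and 444, 448 and 484 in GFP− cells. The count of higher chromatin genes ranged from 10 to 20 when a library was left out. Of 40 DNA replication and repair genes 12 were lower and 0 higher, and of 364 Zfp zinc finger genes 31 were higher (8.52%, against 12.7% of all genes) and 17 lower. With the column number as a block, 22.7% of all genes were higher and 23.6% lower, and 26 chromatin regulators and 82 Zfp genes were higher, with 8 and 34 lower.

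Housekeeping families had few calls. None of 35 proteasome subunits was called in either direction, whereas 1 was higher and 9 lower with the replicate block. Of 76 cytosolic ribosomal protein genes 3 were lower and 0 higher (median -0.13), and 29 were lower with the block, under which 23.6% of all genes were lower. Their summed share of reads was 1.92%, 2.14% and 2.04% in GFP+ cells and 2.3%, 2.28% and 2.42% in GFP− cells, without overlap (exact two-sided permutation test, p = 0.1, the smallest possible). Mitochondrially encoded genes held 0.593 ± 0.1% of reads in GFP+ cells and 0.684 ± 0.01% in GFP− cells (SD, n = 3 each; difference -0.0911 percentage points, exact two-sided permutation test, p = 0.3). None of the 17 tested genes encoded there was called.

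Among 22 genes linked to Parkinson disease, 4 were higher (18.2%, against 12.7% of all genes) and 2 lower (9.09%, against 18%). Dnajc6, the auxilin of clathrin uncoating in neurons, had 6148, 6861 and 6682 normalized reads in GFP+ cells and 2622, 3221 and 3251 in GFP− cells. Pink1, a kinase of mitochondrial quality control, had 1098, 1334 and 1155 in GFP+ cells and 1314, 1545 and 1578 in GFP− cells. Its libraries overlapped, and the change was called at -0.31 (SE 0.10, adjusted p = 0.0404).

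Classes of intronic and weakly supported gene models lay above 0 on average. The annotation class TEC, gene models that still await experimental support, had 206 of 1193 tested members higher and 12 lower (median 0.64), against a median of -0.02 for 14248 protein-coding genes, of which 13% were higher and 21.6% lower. Sense intronic RNAs had 33 of 154 higher and 0 lower (median 0.73). Small nucleolar RNAs had 13 of 109 higher and 0 lower (median 0.34), and miRNA genes 13 of 97 higher and 1 lower (median 0.44). The shares higher were 17.3% for TEC and 21.4% for sense intronic RNAs. For small nucleolar RNAs and miRNA genes they were 11.9% and 13.4%, near the 12.7% of all genes, of which 18% were lower. Long intergenic RNAs gave 70 of 608 higher and 92 lower (median 0.07). The count of higher TEC models ranged from 85 to 364 when a library was left out, and the median without both columns numbered 1 was 0.63. With the column number as a block, 463 TEC models, 59 sense intronic RNAs and 28 miRNA genes were higher, where 22.7% of all genes were. TEC models took 0.374%, 0.212% and 0.247% of reads in the GFP+ libraries and 0.236%, 0.173% and 0.144% in the GFP− libraries, where both columns numbered 1 were highest in their fraction and the ranges overlapped (exact two-sided permutation test, p = 0.2).

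Most of these models lie inside other genes. Of the 1193 TEC models 912 (76.4%) lie within a tested protein-coding gene, 844 of them on its strand. Their median log2 fold change was 0.72, that of their hosts 0.14, and the median of the differences 0.63. Among the 451 whose host was not called, the median was still 0.63. Of 174 higher TEC models with a host, 121 had a higher host, 46 a host that was not called and 7 a lower host. For 150 sense intronic RNAs the median was 0.74 and that of their hosts 0.12. Reads of such a model and of the host's unspliced transcript cannot be told apart in these tables.

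**Figure D4:**
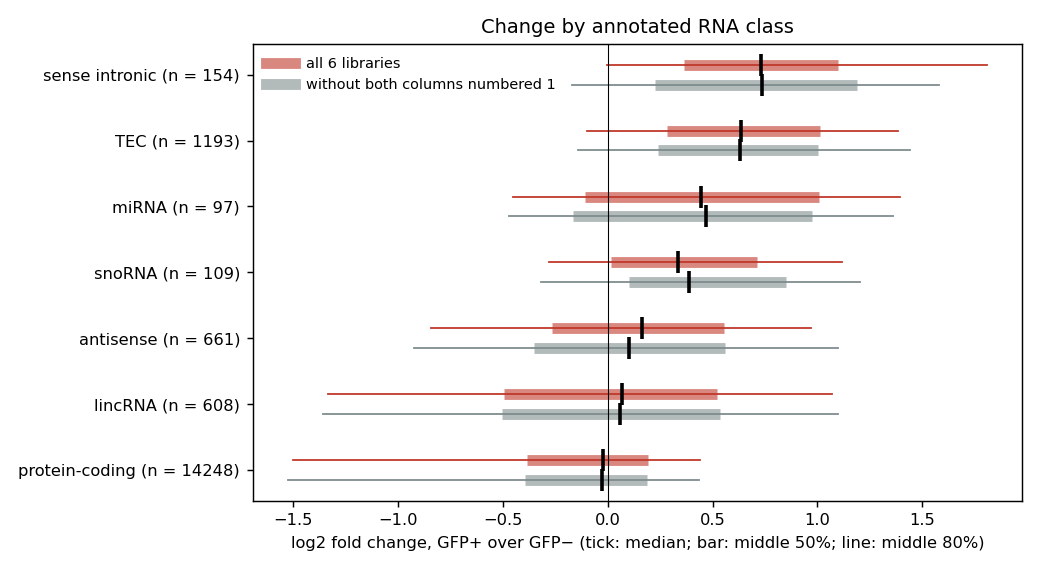
For each annotated class, the tick is the median log2 fold change of GFP+ over GFP− cells, the bar the middle 50% and the line the middle 80% of genes, with all 6 libraries above and without both columns numbered 1 below. The medians of sense intronic and TEC models lie at 0.73 and 0.64 with all libraries, protein-coding genes at -0.02, and leaving out the columns numbered 1 hardly moves them.

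Malat1, a nuclear RNA and the most abundant one in GFP+ cells, had 499935, 252427 and 280155 normalized reads there, against 245510, 148216 and 123593 in GFP− cells (log2 fold change 0.99, SE 0.28, adjusted p = 0.0206). Both columns numbered 1 were the highest of their fraction, at 2.41% of GFP+ reads and 1.29% of GFP− reads. The fractions did not overlap, though GFP+ column 2 and GFP− column 1 lay close together. Rn7sk and Rpph1, abundant small RNAs of transcription control and tRNA processing, were not called, at 0.06 each.

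Longer genes were called more often. Sorted into quintiles by genomic span, protein-coding genes were higher in 6.6%, 7.87%, 9.9%, 14.6% and 25.8% from the shortest (204 to 8581 bp) to the longest quintile (81121 to 2960900 bp). The share lower was 21.1%, 20.1%, 20%, 20.7% and 26.2%. Among genes at or above the median level, the share higher went up with span from 9.54% to 36.1%, and among genes under it from 5.13% to 12.7%. The share lower in the shortest and longest quintile was 10.9% and 16.8% at or above that level. Under it, the share lower was 27.6% and 39.2%. Median log2 fold changes went from -0.01 to 0.16 at or above that level, and from -0.16 to -0.36 under it. Over all protein-coding genes the median was -0.07 in the shortest and 0.03 in the longest quintile. With quantile normalization the share higher was 11.8% in the shortest and 25.3% in the longest quintile.

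Level had its own pattern, which turned on the scaling. By quintiles of the mean over all genes, the share higher was 5.18% in the lowest and 23.4% in the highest quintile, and the share lower 13.8% in the lowest, 27.4% in the next and 8% in the highest. Under quantile normalization the highest quintile had 13.4% higher and 15.5% lower, so the excess of increases among abundant genes was not kept. The mean that defines these quintiles holds the values that are tested, so they are given as a description.

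**Figure D5:**
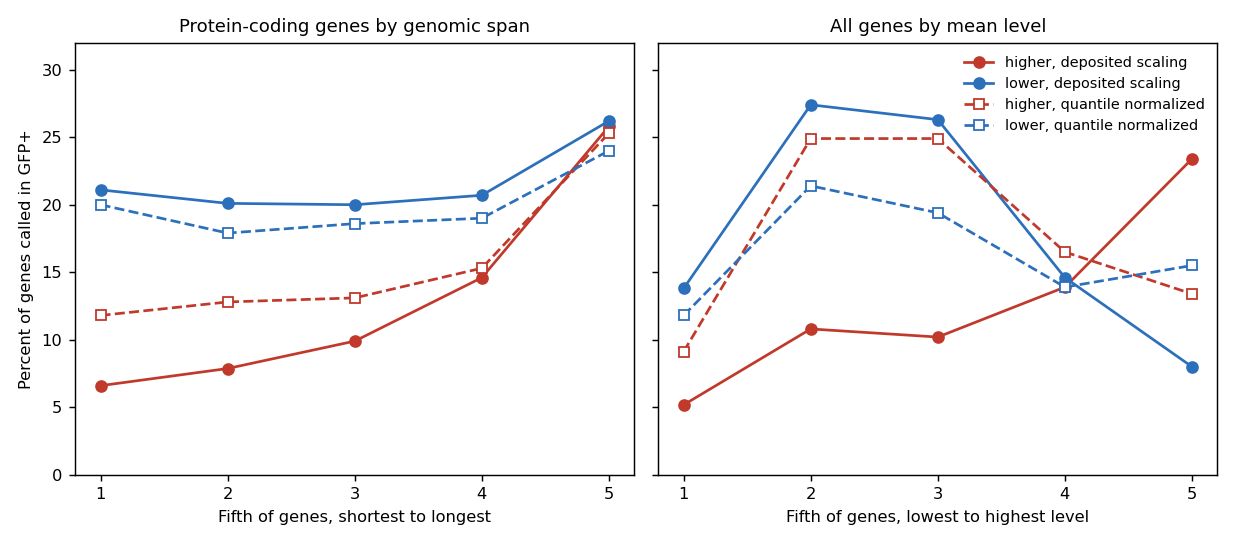
Percent of genes called higher (red) or lower (blue) in GFP+ cells, by quintiles of genomic span for protein-coding genes (left) and by quintiles of mean level for all genes (right), with filled circles for the deposited scaling and open squares after quantile normalization. The share higher climbs to 25.8% in the longest quintile under the deposited scaling and 25.3% after quantile normalization, while by level the lines of the highest quintile change places.

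Small changes could be seen where replicates were tight. Genes for this were chosen for no overlap between the fractions and a small standard error, so their separation follows from the choice. Ube2e3, a ubiquitin-conjugating enzyme, had 3378, 3418 and 3446 normalized reads in GFP+ cells, against 4382, 4370 and 4535 in GFP− cells, and was lower by -0.38 (SE 0.07, adjusted p = 0.00147). Tnpo3, a nuclear import receptor for splicing factors, had 3151, 3131 and 3185 in GFP+ cells and 2801, 2768 and 2774 in GFP− cells, without overlap and without a call (0.18, SE 0.07, adjusted p = 0.0653, and 0.0074 with the replicate block). Across all genes, the libraries of the fractions did not overlap for 44.1% of genes, 20.5% with GFP+ above and 23.5% with GFP+ below.

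Markers of other cell types were measured in both fractions, and their part in the results above was not tested. Summed over 27 radial glia and progenitor genes, GFP+ libraries held 26456 to 27774 normalized reads and GFP− libraries 105754 to 122303. In this list 22 genes were lower and 2 higher. Lmx1a and Wnt5a, the 2 higher ones, averaged 8620 and 5658 in GFP+ cells, much of that sum, against 1960 and 1314 in GFP− cells. Of 21 microglia and macrophage genes 18 were lower and 1 higher, with sums of 586 to 630 in GFP+ and 1912 to 2142 in GFP− libraries. The higher one was Mrc1, a macrophage mannose receptor, with 139, 174 and 126 in GFP+ cells, against 33.4, 22.8 and 28 in GFP− cells, while Tyrobp was at 0 in every GFP+ library. Endothelium and pericytes had 20 of 22 lower (1000 to 1183 in GFP+, 3194 to 3344 in GFP−), with Pdgfrb of pericytes at -4.08. Red blood cell genes had 9 of 10 lower and 1 higher (3079 to 3913 in GFP+, 15642 to 17459 in GFP−). Most of the GFP+ sum came from Tfrc, the higher gene, with means of 3017 in GFP+ and 2163 in GFP− cells. The haemoglobin gene Hba-a2 had 186, 304 and 186 in GFP+ cells against 9087, 8867 and 8837 in GFP− cells. Haemoglobin copies are near-identical, so reads may be split between them.

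The remaining lists of other cells had more lower than higher members. Of 17 meningeal and fibroblast genes 12 were lower and 1, Twist1, higher (510 to 669 in GFP+, 2852 to 3065 in GFP−), and Col1a1 was not called. The oligodendrocyte lineage had 9 of 16 genes lower and 0 higher, with Olig2 at -4.62 and Pdgfra, which the meningeal list also holds, at -3.89. Of 17 astrocyte genes 12 were lower and 1 higher, with Fgfr3, a growth factor receptor of glia, at -4.74. Genes of 11 neural crest and Schwann cell markers gave 6 lower and 3 higher, among them Ret, which dopamine neurons also use. The summed reads of that list ran the other way, at 24274 to 28823 in GFP+ and 12413 to 17128 in GFP− libraries. Among 20 choroid plexus and ciliated cell genes 13 were lower and 2 higher. The choroid plexus transcript Ttr was 1 of these 2, with 19.1, 22.2 and 15.9 in GFP+ cells and 5.38, 1.75 and 2.62 in GFP− cells.

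Genes that respond to dissociation and stress were listed too. Of 29 immediate early and dissociation genes 13 were lower, 2 higher and 14 not called (median -0.71). Fos, which is induced within minutes of stimulation, had 136, 55.5 and 61.7 normalized reads in GFP+ cells, against 434, 424 and 332 in GFP− cells. Klf4, a factor of the same list, went the other way, with 186, 251 and 248 in GFP+ cells and 20.4, 36.8 and 47.2 in GFP− cells. The list's sum overlapped between fractions, at 12825 to 14446 in GFP+ and 13612 to 14616 in GFP− libraries. Of 27 protein folding and stress genes 10 were lower, 0 higher and 17 not called, and the lower count fell to between 4 and 8 when any library was left out. Of 29 glycolysis and hypoxia genes 13 were lower and 2 higher, led by the oxygen sensor gene Egln3 (-4.22).

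Some genes low in the GFP+ fraction at E14 rose in GFP+ cells by birth. In the authors' deposited table of a separate time series of GFP+ cells, genes with a sorted GFP+ mean of at least 500 normalized reads were looked up for the change from E14 to the day of birth. Of 80 such genes that were lower by 2-fold or more in GFP+ cells at E14, that table gave 45 as risen (56.2%) and 23 as fallen (28.7%), with a median log2 fold change of 0.43. Over all 6922 genes of the same level it gave 21.3% as risen and 37.4% as fallen (median -0.10), and of 208 genes higher by 2-fold or more, 32.2% as risen and 45.2% as fallen. The matricellular protein gene Sparcl1 had 658, 860 and 473 in GFP+ cells and 6667, 7693 and 6750 in GFP− cells at E14, and rose by 4.11 in the authors' deposited table. Ttyh1, a membrane protein of glia, and Pcdh17 likewise rose by 1.72 and 2.07 in the authors' deposited table. Vim and Nes, intermediate filament genes of progenitors, and the imprinted RNA H19 fell there by 1.62, 1.30 and 2.48 on the log2 scale. Other members of the radial glia and progenitor list went both ways there, with Dll1 at -0.40 and Fabp7 at 1.36. The libraries of the time series were normalized apart from the sorted ones, so only the direction of each table's own change is set side by side. Whether the genes rose within neurons or with other cells in the later sorts was not tested.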

How the data were processed

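RNA of sorted cells was extracted with the miRNeasy micro kit, depleted of ribosomal RNA with riboZero and made into libraries with ScriptSeq v2, per the labels' protocols. Trimming and alignment tools (Trim Galore, TopHat2), DESeq2 and the builds mm10 and GRCm38 are listed, without versions, per the submitters' processing notes. No source used here names the read counter or says whether it used strand, so overlapping and antisense genes are uncertain. The authors deposited normalized reads per gene, a signal value in which each library was divided by 1 factor. They also deposited, per the file headers, log2 fold changes and p-values with adjusted p for each of their comparisons. Within a library the deposited values were multiples of a single step, and division by that step gave whole reads within 0.1 for 100% of values, hence the depths of 17369191 to 22374153 reads. Reads carried no molecular identifiers, so depth covers counting error alone. The columns of the sorted table name the fraction and a number. The number could not be tied to 1 GEO sample, because titles and descriptions number the samples differently, so columns were used as libraries of their group.

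The fractions were compared on log2(normalized reads + 1) by a two-sided limma-trend test without a block (R 4.3.3 with limma 3.58.1) over the 18260 genes with a mean of at least 5, with Benjamini-Hochberg adjustment at 0.05. Fold changes on this scale understate the change of low genes. Alternatives were the column number as a block, edgeR 4.0.16 and DESeq2 1.42.0 on the recovered reads, other pseudocounts, filters and scalings, array weights, a fold threshold and leaving out libraries. Sums of reads were compared by exact permutation of the libraries. Spans, classes and positions came from GENCODE M21 on GRCm38 (18244 of the 18260 tested genes matched), and promoter windows from RefSeq on GRCm38.p6, of which 8734 tested protein-coding genes had a single one. Named genes were the 5 markers, the 12 largest changes per direction, the 8 highest means per fraction, up to 4 called and 2 uncalled members per list and direction, the 6 highest means called only with the block, the tightest small changes, and genes with a printed promoter. The largest and the tightest small changes were taken only among genes without overlap between the fractions, the largest also at a mean of at least 50. Slc18a2, Sox2, Gad1, Dll1, Fezf2, Slco1a5, Irak3, Sparcl1, Ttyh1, Pcdh17, Vim, Nes and H19 fall outside these rules and were chosen after their values were seen. The members and lists were chosen with earlier results of these data known, and several lists share genes. A result on 1 gene is not reported here.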

Additional observations from a re-analysis of the deposited data

How the results depend on the processing

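Same-numbered columns of the fractions deviated together with r = 0.367, 0.12 and 0.0976 for numbers 1, 2 and 3 across 18260 genes, which are not independent replicates, and GFP+ column 2 was closest to GFP− column 3. Over genes with a mean of at least 50 the values were 0.645, 0.357 and 0.234, and over a mean of at least 500 they were 0.779, 0.562 and 0.33. At a mean of at least 500 GFP+ column 2 was instead closest to GFP− column 2 (0.562, against 0.518 with GFP− column 3). GFP+ column 3 was there closest to GFP− column 2 (0.348). The rule for pairing asked that all 3 same-numbered values exceed 0.1 over all tested genes, which number 3 missed at 0.0976. The numbers were therefore not taken to pair the libraries. With the replicate block 8466 genes were called (4149 higher, 4317 lower), and 8467 with edgeR and the block (3935 higher). The block added 1836 higher and 1031 lower genes and lost 0, and 76.1% and 79.9% of the added genes changed by under 1.5-fold.

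Leaving out any single library gave 1553 to 2550 higher and 2661 to 3231 lower genes. Without both columns numbered 2 there were 1315 higher genes, and without both numbered 3 there were 2966 calls, 876 higher and 2090 lower, of which 469 were higher by 2-fold or more. At a mean of at least 50, which 12588 genes reached, the 2-fold calls numbered 1520 (397 higher, 1123 lower), against 2817 at the limit of 5. How far the smaller number of genes accounts for this was not tested. Quantile normalization gave 1254 higher at 2-fold and a test against 1.5-fold gave 447. The ratio of the share higher between the longest and shortest quintile was 3.9, and 2.15 after quantile normalization. By level it was 4.52, with 3.8 to 7.69 when a library was left out, 8.93 without a filter, 7.02 without both columns numbered 1 and 1.47 after quantile normalization. The ratio of the share lower by level was 0.579, and 0.948 with edgeR and the block, 1.2 without a filter and 1.32 after quantile normalization, the last 2 in the opposite direction; the cause was not tested. No named gene changed sign with a call. Of the 376 called genes under the naming rules, 39 lost the call when some single library was left out. Without both columns numbered 3, 70 lost it, and 100 did in the test against 1.5-fold.

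The alternatives that leave out both columns of a number were added after the data were seen. With 3 libraries per fraction, sums of reads cannot give p below 0.1.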
